A study of Mus musculus with 4 samples.

Results

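Stemness and follicular genes were followed through single CD4 T cells sorted from mouse hosts with graft-versus-host disease (GVHD), the attack of donor T cells on a transplanted host. The set is Tcf7 and 9 others, Lef1, Id3, Slamf6, Bach2, Satb1, Foxo1, Bcl6, Cxcr5 and Izumo1r, which makes 10 of the 31053 genes in the matrices. It was a list fixed by name, and all 10 genes were found by symbol in both expression libraries. The strain label is BALB/c RAG2-/- TS1 Tg: TS1 is a T cell receptor transgene, and without RAG2 endogenous receptor genes are not rearranged. Cells came from spleen, colon, skin, and the epithelium and lamina propria of the small intestine, 4 weeks after transplantation. The 5 tissue compartments were pooled in each of 2 replicates, each with 1 expression and 1 hashtag library made by 10x Genomics 3' v3 chemistry. There is no untreated group, and both libraries carry the same labels of strain, disease and time. Host and donor cells were not told apart. The hashtag files held 0 hashtag features, so no cell has a tissue here, and nothing says that the replicates came from separate animals. An SD therefore measures the spread between 2 pooled libraries, which may be technical. A p-value is for a difference between sets of cells within these libraries. Its error draws on counting and on a spread estimated over many genes, so a small p-value is no evidence from separate animals.

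In T cells that keep the capacity to renew and to supply effector cells, Tcf7 (encoding TCF-1) and Lef1, DNA-binding partners of beta-catenin, are co-expressed with Id3, an inhibitor of E proteins, and with the surface receptor Slamf6. Bach2, Foxo1 and Satb1 act as regulators of the resting state or of chromatin, Bach2 as a repressor of effector genes. Bcl6 is the lineage factor of follicular helper T cells, Cxcr5 the chemokine receptor that takes them into B cell follicles, and Izumo1r encodes folate receptor 4, a surface protein of regulatory, anergic and follicular T cells.

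Barcodes with at least 1000 unique molecular identifiers (UMIs, counted RNA molecules) and 500 genes and at most 10% mitochondrial UMIs gave 19020 cells in library 1 and 15898 in library 2, with medians of 2688 and 3699 UMIs. Shares of cells and comparisons of cell classes used the 15288 and 14855 cells with at least 1500 UMIs, each thinned at random to 1500 UMIs. Cd3e had a UMI in 92.3% ± 0.907 (SD, n = 2 libraries) of them, Cd4 in 25.5% ± 1.199 and Cd8a in 31.1% ± 2.27, so at this depth the CD4 label was borne out by Cd4 UMIs in a minority of cells. The 2 libraries shared 599 kept barcodes, where the product of their shares of the chemistry's barcodes gives 44.5. The shared barcodes had a median of 15780 UMIs in library 1 and 1726 in library 2, and a median correlation of 0.633 between the libraries against 0.540 for the next barcode in the list. They were 3.15% and 3.77% of the cells. Results were computed with and without them, and a call that was lost without them is named beside the result. Cells in which 1% or more of UMIs came from markers of B, myeloid, neutrophil, basophil or mast, erythroid or epithelial cells, or with no T cell receptor or Cd3 UMI, numbered 286 and 198.

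Satb1 was the most abundant member and Bach2 and Cxcr5 the least. A 3' UMI is counted once per captured transcript end, so these levels were not divided by gene length. Satb1 (chr17:51736187-51833290, minus strand) had a level of 100.2 and 110.7 CPM, its share of UMIs scaled to a library of 1000000 UMIs, in libraries 1 and 2. Lef1 (chr3:131110471-131224356, plus strand) had 41.4 and 42.4 CPM, Foxo1 (chr3:52268336-52353221, plus strand) 37.8 and 45.7 CPM, and Tcf7 (chr11:52252371-52283014, minus strand) 39.0 and 37.3 CPM. The means of these 3 genes, 38.2 to 41.9 CPM, lay closer together than the 2 libraries of Foxo1. Izumo1r (chr9:14885814-14903949, minus strand) had 31.9 and 27.4 CPM and Slamf6 (chr1:171917515-171953170, plus strand) 25.6 and 26.9 CPM, with no overlap between the libraries of the 2 genes. Id3 (chr4:136143497-136145755, plus strand) followed at 12.2 and 13.4 CPM and Bcl6 (chr16:23965052-23988852, minus strand) at 6.35 and 5.96 CPM. Cxcr5 (chr9:44511787-44561877, minus strand) had 1.93 and 2.02 CPM and Bach2 (chr4:32238804-32586108, plus strand) 1.68 and 1.52 CPM. Positions are those of GENCODE for mm10. Of the 10 genes, 8 overlap another gene model, and for Cxcr5 this is the coding gene Bcl9l on the opposite strand.

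The barcodes with under 100 UMIs, which hold free RNA, carried the members at much the same level as the cells. Slamf6 stood at 35.2 and 36.8 CPM there and Id3 at 16.9 and 13.5 CPM, so that cells over free RNA gave ratios of 0.727 and 0.732 for Slamf6 and 0.720 and 0.986 for Id3. The highest ratio, 1.62 for Bach2 in library 1, rested on 3 UMIs of free RNA. T cell genes were near 1 as well: Cd3e gave 1.36 and 1.26, Cd4 0.862 and 0.974, and Cd8a 1.27 and 1.12. Free RNA thus had much the composition of the cells. A UMI of a member in a cell can come from free RNA, and how often it does was not measured. The share in cells with markers of other types was set beside each share. Cd3e had a UMI in 55.4% and 29.3% of those cells, so they are no background free of T cell RNA.

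**Figure D1:**
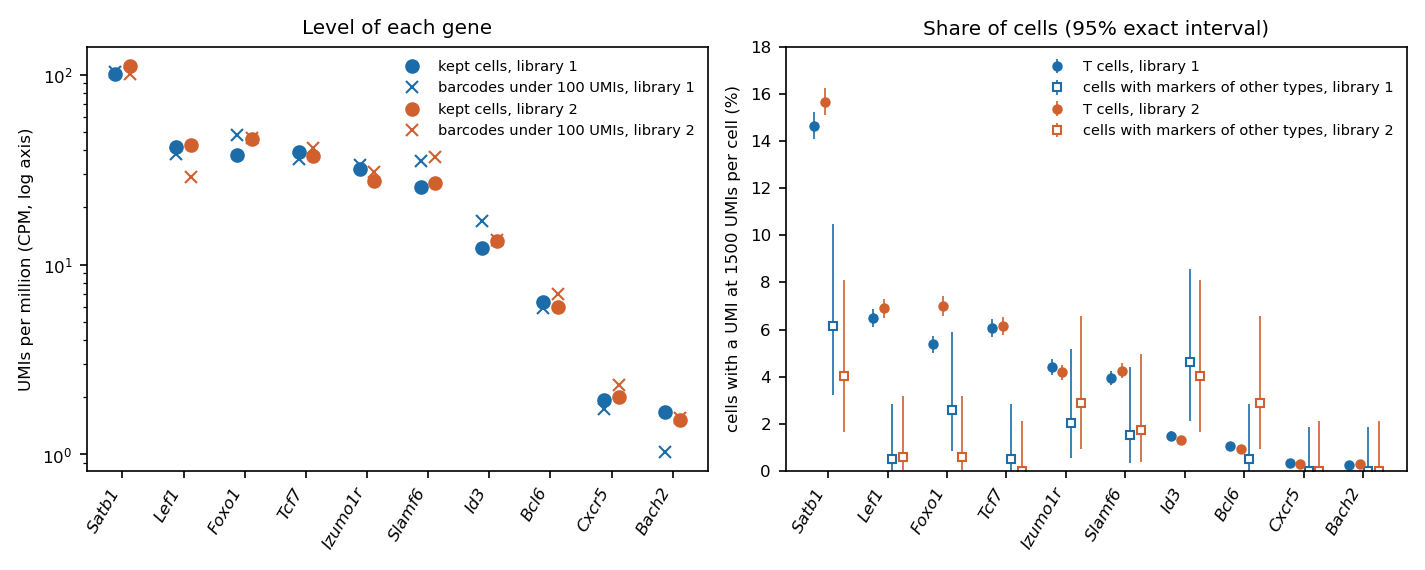
Left, level of each gene in CPM (log axis) in the kept cells (circles) and in barcodes under 100 UMIs (crosses) of both libraries. Right, share of cells with a UMI at 1500 UMIs per cell with exact 95% intervals, in cells without (filled, named T cells) and with (open) markers of other cell types or lacking T cell receptor UMIs. The order runs from Satb1 at 105.5 CPM to Bach2 at 1.60 CPM, and Id3 is the gene whose open squares lie above its filled points in both libraries.

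At 1500 UMIs per cell, a Satb1 UMI was found in 14.7% and 15.7% of T cells, against 6.15% and 4.02% of the 195 and 174 cells with markers of other types. T cells here are cells without such markers at 1% of UMIs and with a T cell receptor or Cd3 UMI. Tcf7 was found in 6.06% and 6.15% of T cells, against 1 of 195 and 0 of 174 other cells, which for library 2 allows a share of up to 1.72%. Lef1 was found in 6.48% and 6.89% of T cells and in 1 other cell of each library. Foxo1 reached 5.37% and 6.98%, Izumo1r 4.40% and 4.18%, and Slamf6 3.93% and 4.24% of T cells. Foxo1 in other cells was at 2.56% (up to 5.88%) in library 1 and 0.575% in library 2, and the intervals of Izumo1r (up to 5.17% and 6.58%) and Slamf6 (up to 4.43% and 4.96%) in other cells reached the T cell shares. Id3 was the exception in direction: 1.48% and 1.29% of T cells against 4.62% and 4.02% of other cells. Of 38 cells with epithelial markers, 11 had an Id3 UMI. Bcl6 was found in 1.03% and 0.913% of T cells and in 0.513% and 2.87% of other cells. Cxcr5 (0.331% and 0.293%) and Bach2 (0.265% and 0.293%) stayed under the 1.54% and 1.72% that 0 of 195 and 0 of 174 other cells allow, so their shares could not be told from background at this depth. Before thinning, shares over all kept cells ran from 0.679% for Bach2 to 30.0% for Satb1, as means of the libraries, with Tcf7 at 11.9%.

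Members of the Tcf7 group met in the same cells more often than their separate shares give. For each pair, the cells with both genes were divided by the product of the 2 shares, within each library, and 95% intervals are exact Poisson intervals on the number of cells with both, which cover counting error only. Tcf7 and Slamf6 were found together in 106 and 103 cells where the products were 35.71 and 38.05, a ratio of 2.83 over both libraries (2.46 to 3.25). Tcf7 and Id3 gave 35 and 35 cells against 13.96 and 11.98, a ratio of 2.70 (2.10 to 3.41). Id3 and Slamf6 gave 27 and 20 cells against 9.08 and 8.30, also a ratio of 2.70 (1.99 to 3.60). In single libraries the ratios of these 3 pairs ran from 2.41 to 2.97. Among pairs with a product of at least 5 cells Tcf7 and Cxcr5 had the highest ratio, 3.74 (2.32 to 5.72), from 7 and 14 cells, with 2.34 in library 1 and 5.36 in library 2.

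Izumo1r joined this group at a lower ratio, 1.88 with Tcf7 (1.59 to 2.21), 1.86 with Slamf6 (1.51 to 2.27) and 1.69 with Id3 (1.15 to 2.39). Lef1 gave 1.57 with Tcf7 (1.36 to 1.81), 1.54 with Izumo1r (1.29 to 1.83) and 1.497 with Slamf6 (1.24 to 1.79). Foxo1 and Bcl6 had no such excess with Tcf7. Tcf7 and Foxo1 met at 1.11 times the product (0.919 to 1.32), and Tcf7 and Bcl6 in 18 cells against 17.9. With Lef1, Foxo1 met at 1.204 times the product (1.02 to 1.41). Satb1 was found with Izumo1r at 0.988 times the product (0.853 to 1.14), and at 1.26 with Slamf6 (1.10 to 1.43) and 1.39 with Bcl6 (1.07 to 1.78). Of the 45 pairs, 35 had a summed product of at least 5 cells, 17 of these had an interval above 1 and 0 had one below. Cells with 3 or more members numbered 191 and 196, against 95.6 and 109.9 if the genes were independent within a library. Thinning holds depth equal, but doublets and free RNA differing between droplets were not measured, and their part was not tested.

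**Figure D2:**
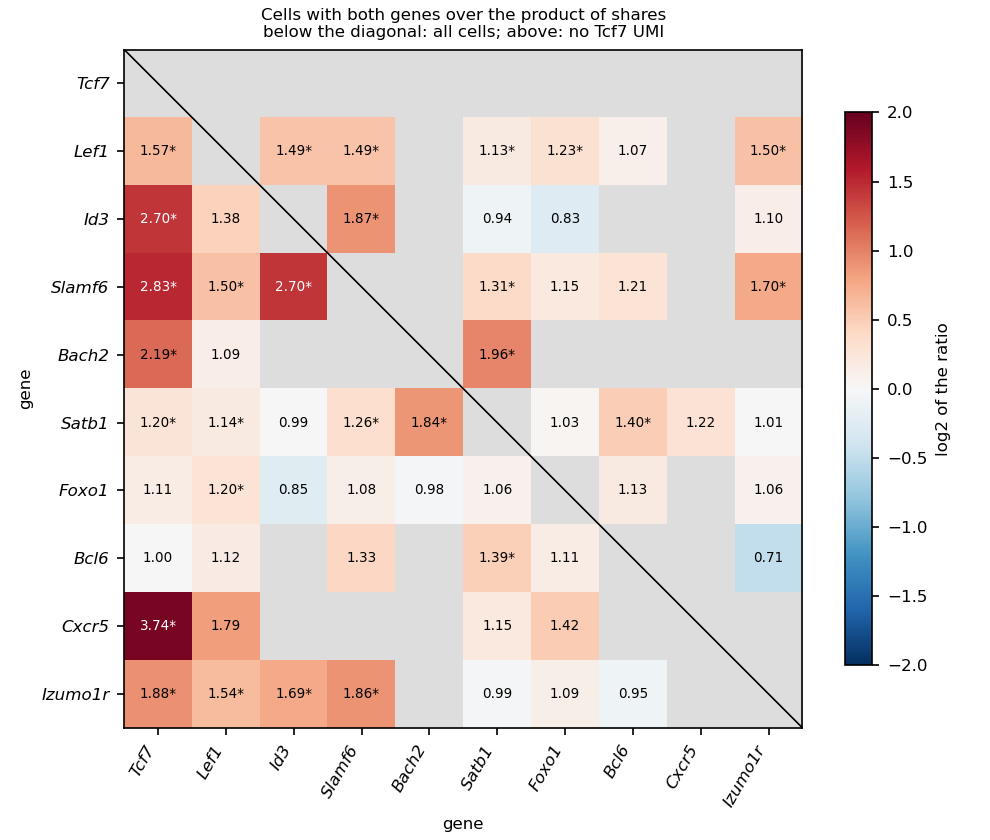
Ratio of cells with both genes to the product of their shares, over both libraries, printed in each square and coloured by its log2. Below the diagonal are all cells and above it cells with no Tcf7 UMI, grey squares had a product under 5 cells, and a star marks a 95% interval above 1. In the Tcf7 column the ratio is 2.70 with Id3, 2.83 with Slamf6 and 3.74 with Cxcr5, and that of Id3 with Slamf6 is also 2.70.

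In the 14372 and 13952 cells with no Tcf7 UMI after thinning, the excess was smaller and part of the pairs kept it. Such a cell is Tcf7-undetected at this depth, not Tcf7-negative. Id3 and Slamf6 met in 14 and 10 cells against 6.75 and 6.07, a ratio of 1.87 (1.199 to 2.79). Slamf6 and Izumo1r gave 1.70 (1.32 to 2.15), Lef1 and Izumo1r 1.505 (1.24 to 1.82), and Lef1 and Slamf6 1.49 (1.21 to 1.82). Id3 and Izumo1r, at 1.69 among all cells, stood at 1.10 (0.629 to 1.79) here. Bach2 and Satb1 met in 7 and 14 cells against 5.05 and 5.65, a ratio of 1.96 (1.22 to 3.00), but over all cells a second random thinning gave that pair 0.965 (0.498 to 1.69) where the first gave 1.84. Of 22 pairs with a product of at least 5, 10 had an interval above 1. Cells with 3 or more of the 9 other members numbered 78 and 81 against 46.1 and 53.6.

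The same relations were tested as levels. Cells with a UMI of 1 member were compared with cells without it by their summed UMIs, 4 sums in all, fitted by edgeR's quasi-likelihood test with the library as a block and Benjamini-Hochberg adjustment over all genes tested. A gene was called at an adjusted p under 0.05. Since cells without the UMI can still express the gene, the classes are detected and undetected cells. Of 90 ordered pairs of members, 29 were called higher and 0 lower, and 12 of the 45 pairs were called from both sides. Over the 10 splits, 0.00% (Bach2) to 5.72% (Satb1) of all genes were called higher and 0.00% to 4.97% lower. The Tcf7 split, with 6 of the 29 calls, was already known from earlier work on these data, so its calls are no new result. These tests and the ratios above use the same UMIs.

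In cells with a Tcf7 UMI, 6 of the 9 other members were called higher, where 4.16% of all 11260 genes tested were called higher and 4.66% lower. Slamf6 stood at 92.4 and 95.2 CPM with a Tcf7 UMI and at 24.4 and 27.2 CPM without, a log2 fold change of 1.84 ± 0.12 (SE; edgeR adjusted p = 3.29e-47). Both libraries showed the same separation. Izumo1r stood at 67.7 and 79.7 against 31.3 and 28.1 CPM (log2 1.29 ± 0.13; edgeR adjusted p = 8.94e-21), and Id3 at 28.4 and 31.0 against 11.2 and 9.37 CPM (1.51 ± 0.21; 5.16e-11). Lef1 was higher by 0.77 ± 0.12 and Cxcr5, on 8 and 14 UMIs, by 2.15 ± 0.45. Satb1 was called at the small log2 difference of 0.26 ± 0.09. Bach2, Foxo1 and Bcl6 were not called. Neutrophil markers stood at 109 and 483 CPM with a Tcf7 UMI against 1694 and 2771 CPM without, and markers of CD8, NK or gamma-delta T cells at 972 and 927 against 1528 and 1489 CPM. The 6 calls held without cells of other types, and the part of the CD8-type markers was not tested. Satb1 lost its call without the replicate block (edgeR adjusted p = 0.248), without the low-count filter (0.111), at 1000 UMIs per cell (0.639) and without the 8% of cells with the most UMIs (0.0938). Cxcr5 lost its call at 1000 UMIs per cell (edgeR adjusted p = 0.0668). Both lost it with DESeq2 (adjusted p = 0.808 for Satb1 and 0.0821 for Cxcr5).

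The splits by Slamf6, Id3, Izumo1r and Lef1 also called Tcf7 higher, which reads the same pairs from the other side. In cells with a Slamf6 UMI 6 members were called higher (2.50% of 11543 genes, and 3.14% lower), among them Tcf7 at 154.4 and 143.8 against 40.4 and 41.3 CPM and Id3 at 41.4 and 28.75 against 11.03 and 9.89 CPM. Neutrophil markers were lower in that class as well, 376 and 967 against 1648 and 2705 CPM, and CD8-type markers stood at 895 and 934 against 1518 and 1478 CPM. The calls of Lef1, Satb1 and Cxcr5 in the Slamf6 split were lost without the replicate block (edgeR adjusted p = 0.0546, 0.233 and 0.0541). In cells with an Id3 UMI 3 were called (1.48% of genes, and 1.62% lower), with Slamf6 at 100.1 and 81.2 against 27.4 and 30.65 CPM. Markers of epithelial cells moved with that class, at 426 and 389 CPM in Id3-detected against 86.3 and 61.6 CPM in Id3-undetected cells, and without cells of other types the calls of Slamf6 and Tcf7 held while that of Izumo1r was lost. Izumo1r-detected cells gave 3 calls (0.999% of genes, and 2.15% lower), Tcf7 by 1.13 ± 0.13, Slamf6 by 1.07 ± 0.16 and Lef1 by 0.67 ± 0.14. Lef1-detected cells gave Izumo1r, Tcf7 and Slamf6 (1.39% of genes, and 1.76% lower), by 0.79 ± 0.14, 0.77 ± 0.12 and 0.60 ± 0.15. Across all alternatives with a test, 12 of the 29 calls held each time: those between Tcf7 and each of Slamf6, Id3, Izumo1r and Lef1 in both directions, and Slamf6 with Id3 in both directions and with Izumo1r in both directions.

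Cxcr5, Satb1, Foxo1, Bcl6 and Bach2 behaved otherwise. The 50 and 43 cells with a Cxcr5 UMI were called higher for Tcf7 (2.01 ± 0.36), Slamf6 (2.07 ± 0.45) and Id3 (3.15 ± 0.62), where 0.108% of 11060 genes were called higher and 0.787% lower. In this small class the median over all genes was -0.35, and -0.25 with RLE size factors, with which all 3 calls were lost. The Id3 value rested on 15 UMIs in library 1 against 1 in library 2, and all 3 were also lost without the shared barcodes. The Satb1 split called Tcf7, Slamf6, Lef1, Bcl6 and Bach2 higher (5.72% of 11365 genes, and 4.97% lower), by 0.37 ± 0.09, 0.39 ± 0.11, 0.28 ± 0.09, 0.63 ± 0.21 and 1.12 ± 0.39. Bach2 had 7 and 17 UMIs there, and in a second random thinning its value was -0.05. Without the shared barcodes the calls of Bach2 and Bcl6 were lost (edgeR adjusted p = 0.121 and 0.0673), and without the replicate block all 5 were. The Foxo1 and Bcl6 splits called 0 members, with 0.337% and 1.26% of genes called higher and 0.700% and 0.600% lower. Bcl6-detected cells of library 2 held neutrophil markers at 7559 CPM, against 2585 CPM in its Bcl6-undetected cells; in library 1 the values were 1004 and 1605 CPM. The Bach2 split, on 40 and 43 cells, called 0 of 11053 genes (0.00%) with edgeR, which gave 363 genes an unadjusted p under 0.05, and DESeq2 called 3.

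Among Tcf7-undetected cells, 12 of 72 ordered pairs were called higher and 0 lower. Slamf6-detected cells held Id3 at 31.3 and 17.9 against 10.5 and 9.04 CPM (log2 1.28 ± 0.30; edgeR adjusted p = 0.00238) and Izumo1r at 46.3 and 62.5 against 30.8 and 26.7 CPM (0.89 ± 0.19; 0.000472). Lef1 (0.53 ± 0.16) and Satb1 (0.38 ± 0.11) were called with them, 4 of 8 members where 1.70% of genes were called higher. Without the shared barcodes Lef1 and Satb1 lost the call (edgeR adjusted p = 0.0906 and 0.0565), which left 2. Lef1 and Izumo1r were each called higher in the cells of the other, by 0.69 ± 0.15 (Izumo1r) and 0.60 ± 0.15 (Lef1), with 0.813% and 0.930% of genes called higher. Slamf6 was called in both of these splits, by 0.61 ± 0.16 and 0.89 ± 0.19. The Satb1 split called Slamf6, Bach2 and Bcl6 (5.72% of genes), and the Cxcr5 split called Id3 (0.0182% of genes). That Id3 value, 3.41, turned to -0.53 in the second thinning (edgeR adjusted p = 0.967). The Id3 split called 0 members, with 1.28% of genes called higher. In these 9 splits from 0.00% (Bach2) to 5.06% (Satb1) of genes were called lower: 2.21% for Slamf6, 1.22% for Lef1, 1.94% for Izumo1r, 1.36% for Id3, 0.723% for Foxo1, 0.234% for Bcl6 and 0.665% for Cxcr5. Foxo1 and Bcl6 called 0 members, with 0.295% and 0.649% of genes called higher. None of the 12 calls held in every alternative: DESeq2 gave 0, the fit with no replicate block 2, and cells with no Tcf7 UMI before thinning 6.

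The promoters of Slamf6 and Lef1, each called higher in the other's cells over all cells and in Tcf7-undetected cells, are shown because TCF-1 and LEF-1 share a DNA motif. The letters are 250 bases before the RefSeq start, from GRCm38.p6, plus strand, Slamf6 at chr1:171917212-171917461 and Lef1 (first of 4 starts) at chr3:131110047-131110296. The Lef1 window holds an exon of the antisense model Gm43352. Capitals would mark the TCF/LEF core CTTTGA or CTTTGT on either strand, and neither window holds it, while the window of the fourth Lef1 start holds 3.
Slamf6: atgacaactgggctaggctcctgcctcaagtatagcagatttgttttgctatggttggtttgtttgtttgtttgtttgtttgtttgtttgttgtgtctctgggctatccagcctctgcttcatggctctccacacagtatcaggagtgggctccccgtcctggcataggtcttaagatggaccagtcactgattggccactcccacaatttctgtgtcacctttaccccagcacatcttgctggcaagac
Lef1: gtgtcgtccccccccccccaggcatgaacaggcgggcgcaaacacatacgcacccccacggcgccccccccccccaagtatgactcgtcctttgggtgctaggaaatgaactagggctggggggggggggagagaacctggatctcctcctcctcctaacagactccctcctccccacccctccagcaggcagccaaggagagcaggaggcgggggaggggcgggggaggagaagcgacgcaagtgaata
Of the 9 members with an entry, 1 (Bach2) holds the TCF/LEF core before its first start, against 27.6% of all 32851 promoter windows of that length, and over all their 18 starts 5 windows hold it. The first windows of Bach2 (chr4:32417185-32417434) and Id3 (chr4:136143572-136143821) lie inside their GENCODE gene models. That of Tcf7 appears to hold coding sequence. The member count is thus not one of promoters alone, and no difference from the 27.6% is drawn from it. A match or its absence describes these letters alone.

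Cells with a UMI of Itgae, which encodes the integrin CD103 that binds E-cadherin on epithelium, had lower levels of 8 of the 10 members, and 0 were higher. The class held 3902 and 3828 cells. Itgae had a UMI in 25.7% and 25.97% of T cells against 11.3% and 9.20% of cells of other types. Of 11323 genes 16.4% were called lower, 14.7% higher and 31.1% in either direction. Slamf6 stood at 10.8 and 12.2 CPM with an Itgae UMI and 34.6 and 38.0 CPM without (log2 -1.64 ± 0.11; edgeR adjusted p = 4.37e-41). Tcf7 stood at 19.3 and 16.02 against 53.6 and 55.9 CPM (-1.61 ± 0.10; 2.48e-54), and Id3 at 5.81 and 4.53 against 14.4 and 12.8 CPM (-1.38 ± 0.18; 1.97e-12). In each of these 3 the classes were apart in both libraries by over the gap between libraries. The 3 are among the called members, so this adds no separate support. Lef1 (29.2 and 34.1 against 50.8 and 54.1 CPM), Satb1 (79.8 and 82.7 against 124.5 and 134.4 CPM) and Izumo1r (25.97 and 21.4 against 36.1 and 34.6 CPM) were lower by smaller amounts, -0.71 ± 0.08, -0.65 ± 0.06 and -0.56 ± 0.09. Bach2 (5 UMIs in each library) and Cxcr5 (8 and 4 UMIs) were called at -1.36 ± 0.46 and -1.28 ± 0.42, and lost the call with DESeq2 (adjusted p = 0.675 and 0.646) and without the replicate block (0.0623 and 0.0803). Izumo1r lost it with DESeq2 (0.108). Foxo1, a target of insulin and receptor signalling kept out of the nucleus by Akt, stood at 37.1 and 51.0 against 37.6 and 48.1 CPM (0.06 ± 0.08) and Bcl6 at 5.64 and 5.92 against 7.50 and 6.53 CPM (-0.26 ± 0.20), neither called. Bcl6 was called without thinning (-0.46), in a second thinning (-0.80) and at 1000 UMIs per cell (-0.82).

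Without the cells holding a Tcf7 UMI, the 7 members called besides Tcf7 were called again, where of 11243 genes 16.0% were called lower, 14.0% higher and 30.0% in either direction. Slamf6 gave -1.53 ± 0.12, Id3 -1.44 ± 0.20, Satb1 -0.68 ± 0.06 and Lef1 -0.67 ± 0.09. Izumo1r was nearer to no change, at 26.4 and 21.6 against 33.1 and 30.4 CPM (-0.39 ± 0.10), and its call was lost without the replicate block (edgeR adjusted p = 0.0768) and with DESeq2 (0.475). Bach2 and Cxcr5 lost theirs without the block (0.0719 and 0.148) and with DESeq2 (0.704 and 0.746), and Cxcr5 also in cells with no Tcf7 UMI before thinning (0.131). The median log2 fold change of the 10 members was -0.99 in all cells and of the 9 in Tcf7-undetected cells -0.68, against -0.005 for all genes tested in each. Markers of CD8, NK or gamma-delta T cells moved with the Itgae class, 2385 and 2352 CPM against 1189 and 1143 CPM, and neutrophil markers against it, 505 and 572 against 1973 and 3347 CPM. The calls of the members held without cells of other types. The part of the CD8-type markers in the result was not tested.

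**Figure D3:**
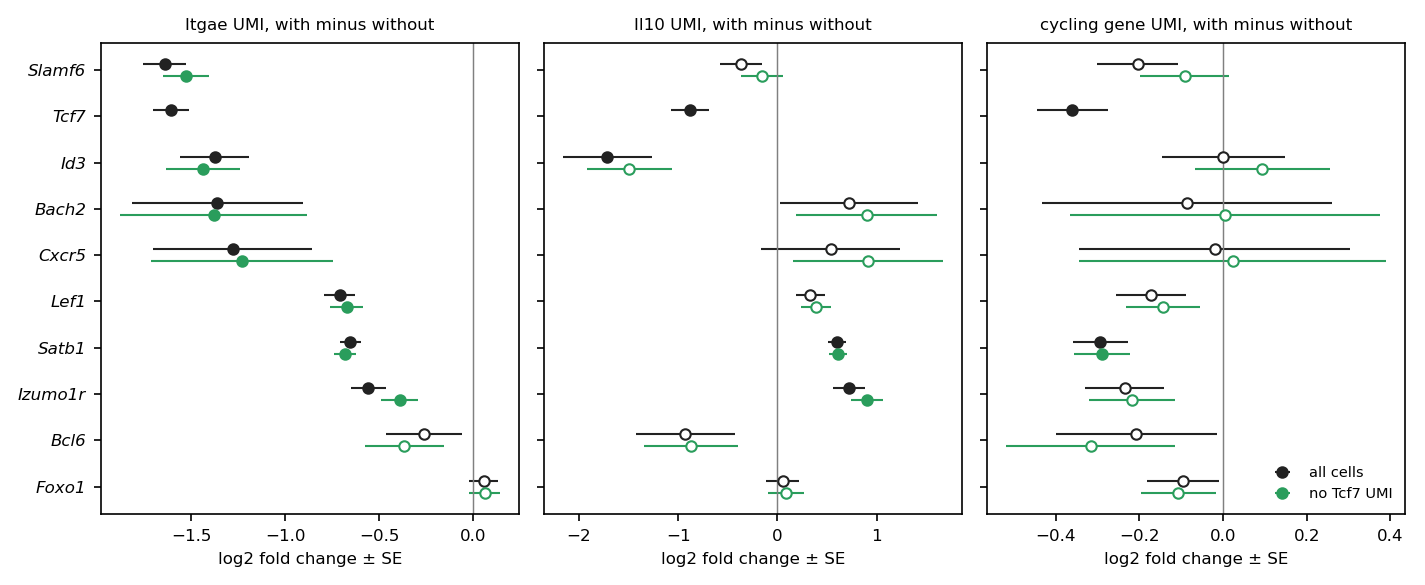
Log2 fold change ± SE of each member between cells with and without a UMI of Itgae (left), of Il10 (middle) or of any of 16 cycling genes (right), on 4 class sums. Black is all cells and green cells with no Tcf7 UMI, filled points were called, and the axes differ between panels. The 8 called values of all cells on the left lie between -1.64 and -0.56, while the middle panel has calls on both sides of 0.

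Cells with a UMI of Il10, an inhibitory cytokine, divided the set. The class had 629 and 738 cells. An Il10 UMI was found in 4.16% and 5.01% of T cells against 1.03% and 1.15% (up to 3.66% and 4.09%) of cells of other types, and Il10 stood at 39.0 and 53.8 CPM in cells and 39.7 and 53.0 CPM in free RNA. Of 11456 genes 6.41% were called, 3.64% higher and 2.77% lower. Satb1 stood at 163 and 169 CPM with an Il10 UMI and 111 and 119 CPM without (log2 0.60 ± 0.09; edgeR adjusted p = 8.22e-06), and Izumo1r at 54.0 and 45.2 against 32.6 and 30.5 CPM (0.72 ± 0.16; 0.00293). Tcf7 was lower, 25.4 and 22.6 against 45.7 and 46.8 CPM (-0.88 ± 0.19; 0.00167), and so was Id3, on 3 and 4 UMIs (-1.71 ± 0.45; 0.0120). The classes did not overlap between libraries for any of the 4, but the 4 were picked by their calls, so this adds no separate support. Satb1 was called in every alternative with a test; Tcf7 and Izumo1r lost the call with DESeq2 (adjusted p = 0.169 and 0.183), and Izumo1r also at 1000 UMIs per cell (0.0585). Id3 lost it without the replicate block (0.0540), without thinning (0.0615), in the second thinning (-1.03, 0.169) and at 1000 UMIs per cell (-1.01, 0.489). Lef1 (0.33 ± 0.14), Slamf6 (-0.37 ± 0.21), Foxo1, Bcl6, Bach2 and Cxcr5 were not called.

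In Tcf7-undetected cells, Izumo1r (56.2 and 45.8 against 30.2 and 27.1 CPM, log2 0.90 ± 0.16, edgeR adjusted p = 0.00302) and Satb1 (161 and 166 against 110 and 117 CPM, 0.61 ± 0.09, 0.000659) were called higher, where of 11223 genes 3.04% were higher, 2.01% lower and 5.05% either, and Id3 gave -1.49 ± 0.43 (0.0653). Markers of regulatory T cells moved with the Il10 class, 405 and 580 CPM against 250 and 322 CPM. Markers of CD8, NK or gamma-delta T cells moved against it, 939 and 786 against 1518 and 1490 CPM, and so did neutrophil markers, 572 and 1093 against 1643 and 2712 CPM. The calls held without cells of other types, and the part of the regulatory and CD8-type markers was not tested. With DESeq2 the call of Izumo1r was lost (adjusted p = 0.0627). Id3 was called lower with RLE size factors (edgeR adjusted p = 0.0477), without the low-count filter (0.0239) and without the shared barcodes (0.0478). It was also called lower in cells with no Tcf7 UMI before thinning (edgeR adjusted p = 0.0409). Izumo1r was thus lower in Itgae-detected and higher in Il10-detected cells, as was Satb1, 2 comparisons on the same cells. With an interaction term for Tcf7 detection, Izumo1r was the only member called: -2.26 ± 0.59 for Itgae (0.532% of 10148 genes called) and -3.62 ± 0.98 for Il10 (1.57% of 8105 genes), from 4 and 1 Izumo1r UMIs in the cells with UMIs of both Tcf7 and the splitting gene; several alternatives lost these calls, such as no thinning (adjusted p = 0.408 and 0.156). The median over all genes was -0.41 in the Il10 interaction. For the cycling genes no member was called (0.0758% of 10552 genes).

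Cells with a UMI of any of 16 cycling genes, such as Mki67 and Top2a, made up 42.9% and 39.4% of cells. Of the members, 2 were called lower and 0 higher, with 16.4% of 11379 genes called, 4.87% lower and 11.5% higher. Tcf7 stood at 38.0 and 39.2 against 49.98 and 49.8 CPM (log2 -0.36 ± 0.09; edgeR adjusted p = 0.000671) and Satb1 at 95.05 and 111.2 against 126.6 and 127.5 CPM (-0.29 ± 0.07; 0.000277). Both calls were lost without the 8% of cells with the most UMIs (-0.26 with adjusted p = 0.0996, and -0.23 with 0.0953) and with DESeq2, and that of Satb1 without the replicate block (0.118). Without thinning, 5 further members were called lower, from Foxo1 (-0.23) to Bach2 (-0.72), with Slamf6, Bcl6 and Izumo1r between them. In that fit 1878 of 13238 genes were called lower and 2768 higher. Neutrophil markers stood at 1970 and 3309 CPM in the class against 1319 and 2191 CPM outside it, and erythroid markers at 167 and 210.5 against 88.9 and 102.7 CPM. Both calls held without cells of other types. Id3 stood at 11.98 and 10.8 against 12.4 and 10.6 CPM, a difference of 0.00 ± 0.15. In Tcf7-undetected cells Satb1 alone was called (-0.29 ± 0.07), where of 11296 genes 5.01% were called lower, 11.8% higher and 16.8% in either direction. This call was lost without the replicate block (edgeR adjusted p = 0.137), without the 8% of cells with the most UMIs (0.0553) and with DESeq2 (0.263).

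With the class narrowed to at least 3 UMIs of the list, a choice made after seeing the data, 6 of the 10 members were lower, beside 17.2% of 11456 genes, with 38.4% called in either direction. Tcf7 stood at 19.8 and 20.5 against 49.9 and 48.2 CPM (log2 -1.25 ± 0.13; edgeR adjusted p = 2.09e-10), Izumo1r gave -0.74 ± 0.14, Satb1 -0.72 ± 0.08, Slamf6 -0.54 ± 0.14, Lef1 -0.46 ± 0.12 and Foxo1 -0.45 ± 0.12. Id3 was not called, at 9.62 and 19.6 against 12.7 and 9.76 CPM, with the libraries in opposite order. Neutrophil markers stood at 3533 and 6402 against 1209 and 2240 CPM in this class and erythroid markers at 282 and 718 against 90.1 and 85.7 CPM. Its cells had medians of 3744 and 9141 UMIs before thinning against 3107 and 3724, and the part of these in the result was not tested.

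The other genes of these programmes, in 3 lists, followed partly. The lists were chosen with earlier results of these data known. Of 20 other stem or progenitor genes, 14 were lower and 2 (Bcl2 and Tcf12) higher in Itgae-detected cells, with a list median of -0.64, beside 16.4% of all genes lower and 14.7% higher. Among the largest changes were those of Klf3 (-1.93 ± 0.10) and S1pr1, the receptor for exit into lymph (-1.71 ± 0.22). Of 15 tested follicular helper genes 8 were lower, led by Il4 (-3.54 ± 0.70), Il21 (-1.63 ± 0.19) and Maf (-1.17 ± 0.05), and 4 (Cd200, P2rx7, Tox and Tox2) were higher. Effector regulators were divided too, 8 of 14 lower, with Eomes at -1.94 ± 0.09 and Bhlhe40 at -0.63 ± 0.03, and 3 higher, with Ikzf2 at 0.85 ± 0.05.

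In Il10-detected cells, beside 3.64% of all genes higher and 2.77% lower, 6 of the stem or progenitor genes were higher, led by Cd27 (1.11 ± 0.07), Klf3 (0.97 ± 0.14) and Cd28 (0.66 ± 0.06), and Il7r and Bcl2 were lower. Il21 (2.50 ± 0.19) and Maf (1.45 ± 0.06) led 5 higher follicular helper genes, with Gpr183 (-0.88 ± 0.13) and Cd200 lower. Irf4 (1.31 ± 0.24), Eomes (1.17 ± 0.11) and Prdm1, which encodes the repressor Blimp-1 (1.10 ± 0.13), led 4 higher effector regulators, and Gata3, Hopx and Rora were lower. In cells with a cycling gene UMI, beside 4.87% of all genes lower and 11.5% higher, 7 stem or progenitor genes were lower, with Ccr7 at -0.45 ± 0.15 and Rflnb at -0.39 ± 0.11, and Myb alone higher (1.22 ± 0.26). Of the follicular helper genes 6 were lower, with Il4 at -1.27 ± 0.42, Cd40lg at -0.34 ± 0.07 and Gpr183 at -0.33 ± 0.07, and of the effector regulators 5, with Hopx at -0.33 ± 0.06, Bhlhe40 at -0.27 ± 0.05 and Rora at -0.23 ± 0.06.

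Levels of the members across cells with a UMI of 17 state genes are a description, since the classes overlap and share cells. In the 192 and 178 cells with a UMI of S1pr1, Tcf7 stood at 125 and 172 CPM, where all cells had 44.8 and 45.6 CPM. Slamf6 stood at 90.3 and 149.8 CPM there, where all cells had 28.5 and 31.3 CPM, and Izumo1r at 128.5 and 44.9 CPM, a wide gap between libraries. Klf2-detected cells, with more cells behind them (2907 and 3080), showed Tcf7 at 92.0 and 87.9, Slamf6 at 60.1 and 55.6, and Id3 at 24.8 and 25.1 CPM. Il7r-detected cells had Tcf7 at 74.7 and 90.3 CPM, with Izumo1r at 30.5 and 31.96 CPM, close to its level in all cells of 33.5 and 31.2 CPM.

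For Tcf7 and Slamf6 the 3 lowest classes by mean were those of Itgae, Cd8a and Ccr9. In Cd8a-detected cells Slamf6 stood at 11.1 and 10.2 CPM and Id3 at 5.46 and 3.19 CPM, and in Ccr9-detected cells, Ccr9 being the small intestinal homing receptor, Tcf7 stood at 19.2 and 21.2 CPM. Bcl6 had another order, at 9.85 and 17.8 CPM in Il13-detected and 14.7 and 10.7 CPM in Pdcd1-detected cells against 7.02 and 6.37 CPM in all cells. Id3 stood at 29.6 and 29.5 CPM in cells with a UMI of the heat shock gene Hspa1a against 12.2 and 10.7 CPM in all cells, on 62 and 53 UMIs, while Lef1 stood there at 38.6 and 37.3 CPM, under its 45.3 and 49.0 CPM in all cells. Foxo1 varied less than these, from 29.5 CPM in Ifit3-detected to 60.95 CPM in Ctla4-detected cells, both in library 2, where all cells had 48.8 CPM.

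**Figure D4:**
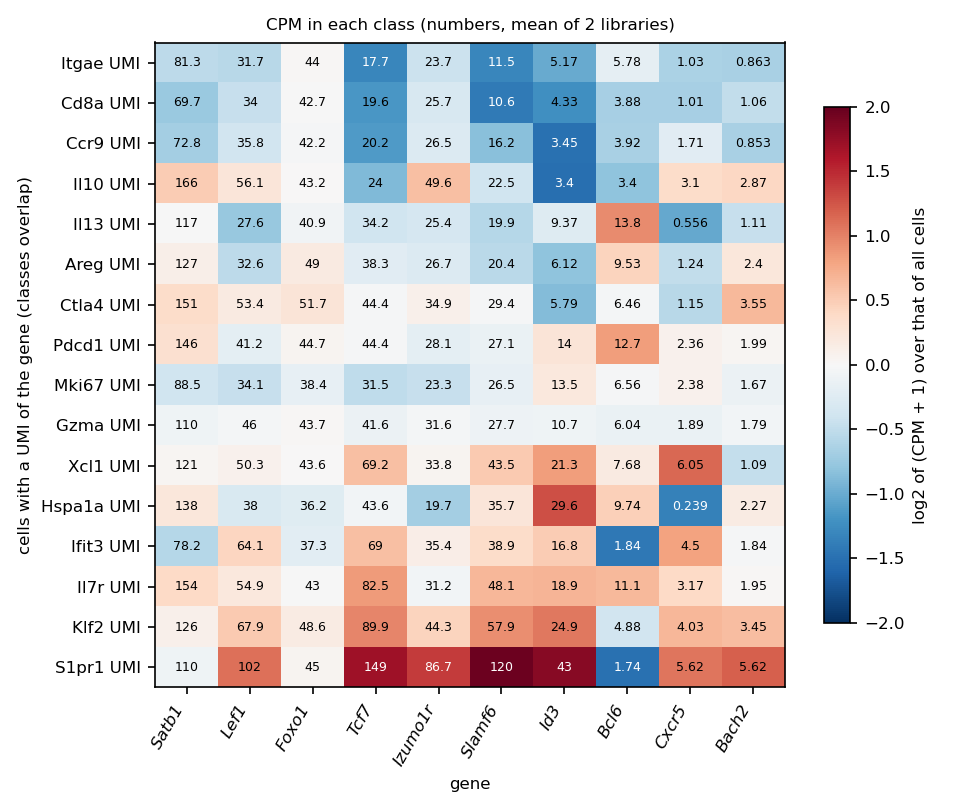
CPM of each member (numbers, mean of 2 libraries) in cells with a UMI of the gene at left, coloured by the log2 of (CPM + 1) over that in all cells; 1 of the 17 classes is not shown. Slamf6 runs from 10.6 CPM in the Cd8a row to 120 CPM in the S1pr1 row, while Foxo1 runs from 36.2 CPM (Hspa1a) to 51.7 CPM (Ctla4).

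Genes most like the members were ranked among 5312 other genes with at least 20 CPM by how many of the 9 member splits in Tcf7-undetected cells called them higher. Of these, 4603 were called in 0 splits, 16 in 4 and 2 in 5. Cd28, the co-stimulatory receptor (mean log2 fold change 0.35), and the nuclear RNA Malat1 (0.04) were called in 5, both in the Lef1, Slamf6, Satb1 and Izumo1r splits. The next by mean change, called in 4, were Dgka (0.48), Il7r, the receptor for interleukin 7 (0.33), Eomes (0.29), Tnfsf8 (0.29), Tnfrsf4, which encodes OX40 (0.27), Dusp2 (0.22), Ltb (0.21) and Ms4a4b (0.20). In Tcf7-undetected cells 9 of these 10 were lower with an Itgae UMI, beside 16.0% of all genes, from Eomes at -2.02 ± 0.10 to Ltb at -0.49 ± 0.03, and Malat1 was not called. The 16.0% is over all genes tested, not over the 5312 ranked. The 10 genes were picked in these same cells by the splits of 9 members, of which 7 were lower with an Itgae UMI there. Their count is therefore no separate result. With an Il10 UMI the same genes parted, beside 3.04% of all genes higher and 2.01% lower. Those called higher were Cd28 (0.70 ± 0.06), Eomes (1.18), Dusp2, Tnfrsf4, Ltb, Malat1 and Ms4a4b. Tnfsf8 (-1.70 ± 0.14) and Il7r (-0.47 ± 0.12) were lower, and Dgka was not called.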

How the data were processed

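The authors deposited counts, raw UMI counts per gene and barcode over all 6794880 barcodes of the chemistry, made with Cell Ranger 3.1.0 on mm10 per the submitters' processing notes. No normalization was applied. Members, lists and tests were chosen with earlier results of these data known. Cells were filtered as given above and thinned without replacement (seed 20). No cluster was named and no doublet caller was run; dropping the 8% deepest cells per library was an alternative. Free RNA was taken from barcodes under 100 UMIs. Class sums (4 per split, 8 with an interaction) were tested with edgeR 4.0.16 (R 4.3.3; TMM, filterByExpr). Both classes of a library come from that library, which pairs them, so the library was a block, which left 1 residual degree of freedom; an SE is the log2 fold change over the root of F. Alternatives were DESeq2 1.42.0, no replicate block, no filter on low counts, RLE size factors, no thinning, a second thinning, thinning to 1000 UMIs, no cells of other types, fewer high-UMI cells, each library alone, and no Tcf7 UMI before thinning; leaving out shared barcodes and a cycling class from 3 UMIs were added after seeing the data. The named genes were the 10 members, the 3 largest called changes of each list in the Itgae, Il10 and cycling splits, and the 10 most like genes (1 gene of the lists is not reported here); other names were chosen after their values were seen. On counts simulated for the Itgae split (11332 genes), 89.8% of genes changed 2-fold were recovered, and for the Slamf6 split (11551 genes) 48%. Tables were handled with pandas 2.3.3, scipy 1.17.1 and numpy 2.4.6 in Python 3.11.15. Binomial intervals are Clopper-Pearson and, like limits from 0 counts (3 counts), cover counting error only.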

Additional observations from a re-analysis of the deposited data

Results flagged for a closer look

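Izumo1r differed between Tcf7-detected and Tcf7-undetected cells in the Itgae split, by a tested interaction of -2.26 ± 0.59 (log2, SE; edgeR adjusted p = 0.0294). In the 194 cells with UMIs of both Tcf7 and Itgae it had 4 UMIs (13.8 CPM), against 197 UMIs (80.8 CPM) in the 1625 Tcf7-detected cells without Itgae, a ratio of 0.170 (exact 95% counting interval 0.0459 to 0.442). In Tcf7-undetected cells the ratio was 0.754 (0.657 to 0.864). The call was lost in 5 of the alternatives, where the value ranged up to -0.34 without thinning (adjusted p = 0.408).

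The same interaction in the Il10 split was -3.62 ± 0.98 (edgeR adjusted p = 0.0168). In this fit the median over all genes was -0.41, with 5 genes called higher and 122 lower. The 48 cells with UMIs of both Tcf7 and Il10 held 1 Izumo1r UMI, against 200 in 1771 Tcf7-detected cells without Il10, a ratio of 0.185 (0.00465 to 1.04), while Tcf7-undetected cells gave 1.76 (1.42 to 2.16). The Izumo1r call was lost with RLE size factors (-3.41, edgeR adjusted p = 0.094), at 1000 UMIs per cell (-2.31, 0.48) and without thinning (-0.84, 0.156).

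The hashtag libraries, which no comparison used, held 63 UMIs of the members in replicate 1 and 64 in replicate 2, of 157432 and 208698 UMIs in all.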

How the results depend on the processing

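Of the 14 members called in the Itgae, Il10 and cycling splits of all cells, 6 kept the call in every alternative with a test: Slamf6, Tcf7, Id3, Lef1 and Satb1 for Itgae, and Satb1 for Il10. Of the 10 in Tcf7-undetected cells 5 did, those but for Tcf7. In each library alone, none of these 14 or 10 changed sign. Of the 12 called ordered pairs of Tcf7-undetected cells 0 kept the call everywhere, and of the 29 in all cells 12 did.

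Counts of called genes moved as follows; the cause was not tested. Without the replicate block (both classes of a library share its cells, so the block is the pairing) the Itgae split gave 1311, the Il10 split 260, the cycling split 556, and in Tcf7-undetected cells 1259, 283 and 563, with 17 and 2 ordered member pairs. DESeq2 gave 831, 228, 414, 864, 214 and 419, with 14 and 0 pairs. Without thinning they were 6606, 325, 4646, 6226 (Il10 in Tcf7-undetected cells stayed within 1.5 times) and 4377. Thinned to 1000 UMIs, Itgae gave 1646 and 1696, Il10 355 and 332, member pairs 15 and 2, and pairs with a co-detection interval above 1 numbered 8. Without the 8% of cells with the most UMIs, cycling gave 563 and 779, and from 3 UMIs 4397 and 4461. With no Tcf7 UMI before thinning, 6 pairs were called. Interaction counts were 315 (no thinning) and 10 (1000 UMIs) for Itgae, 39 (RLE) and 19 (no thinning) for Il10, and 14 (no filter), 23 (no thinning), 0 (without the 8%), 5 (without shared barcodes) and 13 (3 UMIs) for cycling.

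Signs turned for 2 called pairs in the second thinning, Bach2 by Satb1 (-0.049) and Id3 by Cxcr5 in Tcf7-undetected cells (-0.53), the latter on few UMIs. The other reversals were of values not called. In the Il10 split Bcl6 gave 0.21 and 0.26 (Tcf7-undetected) at 1000 UMIs, and Slamf6 in Tcf7-undetected cells 0.014 without thinning and 0.048 with no Tcf7 UMI before it. In the cycling split Id3 gave -0.0092 (RLE), -0.019 (no filter), -0.0082 (DESeq2), -0.015 (1000 UMIs), -0.084 (no other types), -0.143 (without the 8%) and -0.048 (no shared barcodes). Bach2 gave 0.094 (1000 UMIs) and 0.0197 (without the 8%), Bcl6 0.013 (second thinning), and Cxcr5 0.113 (1000 UMIs) and 0.072 (without the 8%). In its Tcf7-undetected cells Id3 gave -0.0025 (no other types) and -0.037 (without the 8%), and Slamf6 0.0048 (without the 8%). Bach2 there gave -0.0073 (RLE), -0.0148 (no filter), -0.0215 (DESeq2), -0.699 (no thinning), -0.063 (second thinning), -0.0178 (1000 UMIs), -0.542 (3 UMIs) and -0.0403 (no Tcf7 UMI before thinning), and Cxcr5 -0.0159 (DESeq2), -0.451 (no thinning) and -0.279 (second thinning).

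At 1500 UMIs per cell the least abundant members, Bach2 and Cxcr5, had 83 and 93 detected cells, which limits their splits.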
